A study of Mus musculus with 6 samples.

Results

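The Ifi200 family is a row of interferon-inducible genes that lies beside Fcer1a, the gene of the IgE-binding chain of the high-affinity IgE receptor, on mouse chromosome 1. The 8 genes described here are Ifi202b, Ifi203, Ifi204, Ifi208, Ifi211, Aim2, Mndal and Pyhin1, which the RefSeq gene table lists as Ifi209. Every probe whose RefSeq accession the table assigned to one of them was taken, which gave 13 of 55681 probes and 7 of 19752 named genes. Ifi208 had 4 probes, Pyhin1 had 3, Ifi202b had 2, and Ifi204, Ifi211, Aim2 and Mndal had 1 each. No probe could be assigned to Ifi203, which is not analysed here. The genes were chosen for their difference between labelled knockouts and wild type (WT), so those differences are given as a description, with no test.

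RNA of homogenised whole lung from C57BL/6 mice was hybridised to 6 Agilent 1-colour arrays, 1 for each of 6 groups. The groups were FceRIa KO mice (genotype FceRIa-/-), FcRg KO mice (genotype FcRg-/-) and WT mice, each given mouse histamine-releasing factor (HRF, a His-tagged protein) or PBS through the nose. There are no replicates, and the labels give neither age, sex, dose and time nor whether an array holds RNA of 1 mouse or of several. Levels are log2 of the processed spot signal over the 75th percentile of its array, so that 0 marks that percentile, and a positive difference means higher on the first array named.

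Ifi200 proteins typically join an N-terminal pyrin domain, which binds other pyrin domains, to a C-terminal HIN domain, which binds DNA. Aim2 senses double-stranded DNA in the cytosol and recruits the adaptor Pycard to activate caspase-1. Ifi204 is a DNA sensor related to human IFI16, and Ifi202b, which has HIN domains but no pyrin domain, binds DNA and opposes Aim2. The genes are close relatives that differ among inbred mouse strains in sequence and level, and Ifi202b is known to be low in C57BL/6 mice. The probe sequences were not used here, so whether a probe also binds a relative, or whether its target differs between these mice, was not tested.

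The promoters of the 4 members with a 2-fold call on both arrays labelled FceRIa KO are shown first, because interferon acts on this family through them. That of Mndal, which was close to WT, is shown beside them for the motif it shares. Each is the RefSeq reference sequence of C57BL/6J (GRCm38.p6), from 250 bases before the transcription start to 50 after it, written 5′ to 3′ on the gene's strand. Capitals mark matches to either of 2 motifs searched on both strands, the interferon-stimulated response element core (GAAA, any 2 bases, GAAA) and the palindromic gamma-activated site core TTCNNNGAA. The windows are chr1:173982795-173983094 on the minus strand for Ifi202b, chr1:173673415-173673714 on the plus strand for Ifi208, chr1:173912997-173913296 on the minus strand for Ifi211, chr1:173880138-173880437 on the minus strand for Mndal and chr1:173420354-173420653 on the plus strand for Aim2.
Ifi202b: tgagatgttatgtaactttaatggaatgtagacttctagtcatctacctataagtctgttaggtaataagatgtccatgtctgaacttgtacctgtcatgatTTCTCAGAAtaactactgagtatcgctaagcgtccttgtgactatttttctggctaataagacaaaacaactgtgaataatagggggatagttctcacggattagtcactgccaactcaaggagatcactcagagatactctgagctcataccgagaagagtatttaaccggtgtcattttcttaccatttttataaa
Ifi208: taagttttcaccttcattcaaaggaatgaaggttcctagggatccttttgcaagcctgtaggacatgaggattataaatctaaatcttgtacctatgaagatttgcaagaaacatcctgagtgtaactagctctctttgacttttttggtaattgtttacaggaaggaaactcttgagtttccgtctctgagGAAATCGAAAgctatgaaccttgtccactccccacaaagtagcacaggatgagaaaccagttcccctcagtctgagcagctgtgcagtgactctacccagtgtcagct
Ifi211: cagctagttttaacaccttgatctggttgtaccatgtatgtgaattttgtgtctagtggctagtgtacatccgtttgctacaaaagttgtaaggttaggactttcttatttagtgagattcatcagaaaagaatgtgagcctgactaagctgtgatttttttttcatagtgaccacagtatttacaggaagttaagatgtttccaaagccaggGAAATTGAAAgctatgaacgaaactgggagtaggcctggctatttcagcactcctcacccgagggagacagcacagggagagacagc
Mndal: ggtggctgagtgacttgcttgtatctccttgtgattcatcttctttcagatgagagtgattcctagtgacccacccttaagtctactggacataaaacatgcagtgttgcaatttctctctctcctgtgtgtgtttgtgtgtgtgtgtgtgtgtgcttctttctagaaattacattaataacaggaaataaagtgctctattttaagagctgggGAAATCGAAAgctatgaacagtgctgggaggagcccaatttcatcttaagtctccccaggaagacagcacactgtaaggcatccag
Aim2: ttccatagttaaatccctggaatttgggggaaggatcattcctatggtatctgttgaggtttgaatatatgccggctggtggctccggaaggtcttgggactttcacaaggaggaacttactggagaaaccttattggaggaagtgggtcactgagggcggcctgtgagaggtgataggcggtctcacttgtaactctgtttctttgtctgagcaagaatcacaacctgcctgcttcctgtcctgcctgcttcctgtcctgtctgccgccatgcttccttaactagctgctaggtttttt

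The table held 9 promoter windows for 7 of the 8 members, with 2 overlapping windows each for Mndal and Ifi203 and none matched for Ifi204. The response element core was found in 5 of these 9 windows, against 3.44% of all 32851 promoters in the table. It began 58 bases before the start in Ifi208, 37 in Ifi211 and 36 in the Mndal window shown. The gamma-activated site core was found in 1 of the 9, that of Ifi202b, 148 bases before the start, against 8.30% of all promoters. In Ifi208, Ifi211, Mndal and Ifi203 the response element on the gene's strand was followed by the same bases. The resulting word GAAATNGAAAGCTATGAAC, chosen after these letters were seen, was found in 7 of the 32851 promoters, all of the Ifi200 family: these 4 members and Ifi205, Ifi206 and Ifi213. A match is a description of the reference letters, and neither core was found in the windows of Aim2 and Pyhin1.

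Of the 13 member probes, 11 were well above background on all 6 arrays, and both Ifi202b probes on 4. Each had 1 spot per array. Over probes spotted 10 times, the median spot-to-spot SD within an array was between 0.0506 and 0.0596 on the log2 scale for levels above 0, between 0.0704 and 0.0743 from -3 to 0, and between 0.134 and 0.145 from -6 to -3. This spread is technical and holds no difference between mice. Between 67.5% and 79.6% of spots were well above background and none was saturated. The labels are not borne out by the targeted genes: Fcer1g was between 3.93 and 4.61 on the 6 arrays, and Fcer1a was higher, not lower, on the arrays labelled FceRIa KO. Whether these probes lie in the deleted parts is not known here, so the arrays are named by their labels.

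On the arrays labelled FceRIa KO, Ifi202b was far higher than in WT, Aim2 was higher, and Ifi208 and Ifi211 were lower. At least 2-fold on both the HRF and the PBS array, 3 of the 13 member probes were higher and 5 lower. Over all 40925 probes compared, 0.105% were higher and 1.07% lower by the same rule. The members were chosen on these differences, so nothing is read from the counts beside those shares. On the arrays labelled FcRg KO, 0 of 13 member probes were higher and 0 lower on both arrays, against 0.109% and 1.19% of all probes.

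Array by array, 3 member probes were higher and 6 lower under the label FceRIa KO with HRF (1.48% and 2.57% of all probes), and 3 and 5 with PBS (0.74% and 5.38%). Under the label FcRg KO, 0 were higher and 2 lower with HRF (1.14% and 2.95%), and 0 and 0 with PBS (0.492% and 6.34%). The 2 lower ones with HRF were Ifi211 and probe A_55_P2032167 of Ifi202b.

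**Figure D1:**
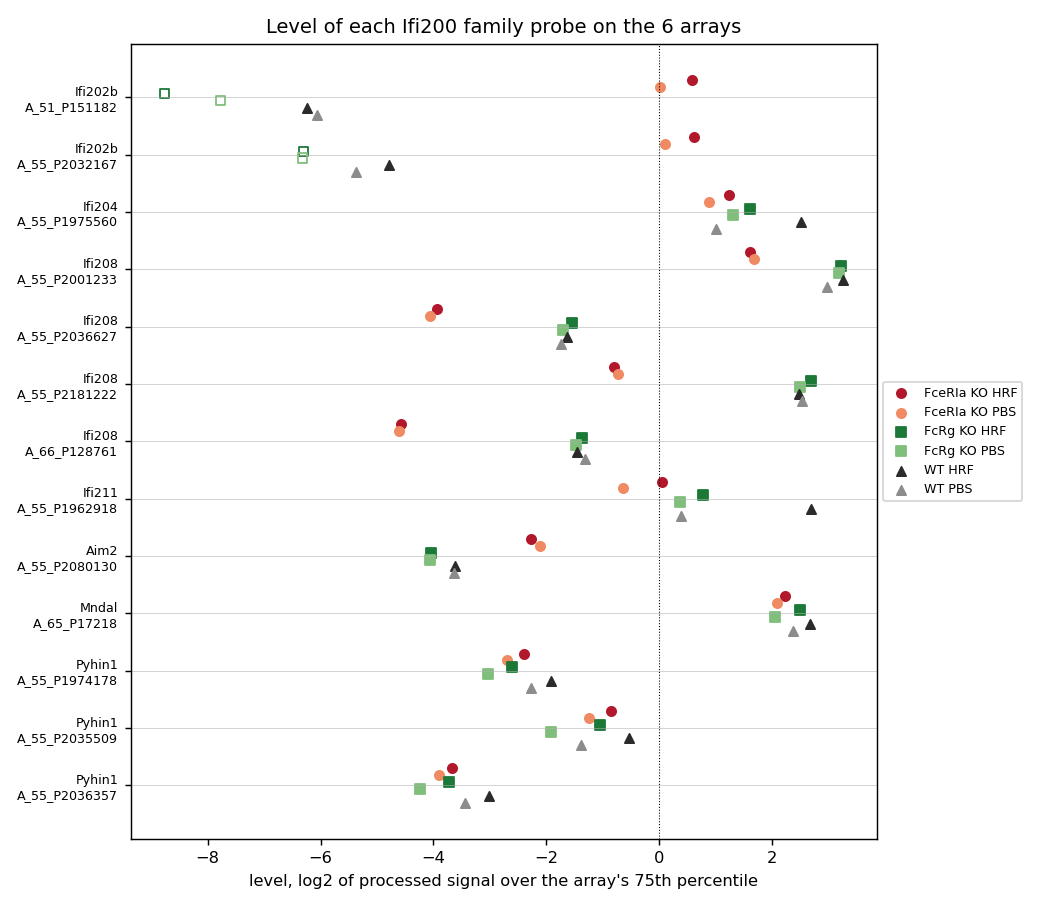
Level of each of the 13 Ifi200 family probes (rows) on the 6 arrays, as log2 of the processed signal over the array's 75th percentile. Each point is 1 array, and hollow points were not well above background. The points labelled FceRIa KO stand far to the right of the others for both Ifi202b probes and to the left for the 4 Ifi208 probes.

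Ifi202b had the largest difference of the family. Probe A_51_P151182 stood at 0.58 and 0.02 on the HRF and PBS arrays labelled FceRIa KO, at -8.76 and -7.77 on those labelled FcRg KO, and at -6.24 and -6.07 in WT. Probe A_55_P2032167 stood at 0.62 and 0.11 on the arrays labelled FceRIa KO, at -6.31 and -6.32 on those labelled FcRg KO, and at -4.78 and -5.37 in WT. Both probes were thus near the 75th percentile on the arrays labelled FceRIa KO and at the dim end elsewhere.

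The fold of Ifi202b over WT was 114 with HRF and 68.0 with PBS by the first probe, and 42.1 and 44.7 by the second. Among the 40925 probes compared, their mean differences of 6.46 and 5.44 were the highest, at ranks 1 and 2. The first probe's WT levels lay just above the lowest signal counted as well above background there, -6.59 with HRF and -6.57 with PBS. Neither probe was well above background on the arrays labelled FcRg KO. Against those, the arrays labelled FceRIa KO were at least 138-fold higher with HRF and at least 93.3-fold with PBS by the first probe, and at least 122-fold and 86.3-fold by the second. With normexp background correction, the differences from WT were smaller, between log2 3.97 and 4.76 over both probes and both challenges.

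Against WT, Ifi202b on the arrays labelled FcRg KO had only a bound. WT was at least 1.21-fold higher with HRF and 1.37-fold with PBS by the first probe, and at least 2.89-fold and 1.93-fold by the second. These bounds hold for the processed signal: with normexp, the second probe on the arrays labelled FcRg KO stood at log2 -0.41 from WT with HRF and -0.17 with PBS.

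Aim2, the DNA sensor, was the other member with a higher level. It stood at -2.28 and -2.11 on the HRF and PBS arrays labelled FceRIa KO, at -4.05 and -4.06 on those labelled FcRg KO, and at -3.62 and -3.64 in WT. The arrays labelled FceRIa KO were highest, 2.53-fold above WT with HRF and 2.89-fold with PBS. With normexp, the differences were log2 0.93 with HRF and 1.24 with PBS, so that the HRF one was under 2-fold and 2 member probes, in place of 3, were higher on both arrays. Those labelled FcRg KO were lowest, 0.43 and 0.42 below WT on the log2 scale. With normexp these differences were smaller, log2 -0.23 with HRF and -0.06 with PBS.

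All 4 probes of Ifi208 were lower on the arrays labelled FceRIa KO, by unequal amounts. The largest difference, as the mean of both challenges, was that of A_55_P2181222, which stood at -0.81 and -0.74 on the HRF and PBS arrays labelled FceRIa KO, at 2.68 and 2.49 on those labelled FcRg KO, and at 2.47 and 2.53 in WT. The smallest was that of A_55_P2001233, at 1.60 and 1.69 on the arrays labelled FceRIa KO, 3.22 and 3.18 on those labelled FcRg KO, and 3.25 and 2.98 in WT. For each of the 4 probes the arrays labelled FceRIa KO were lowest, and those labelled FcRg KO lay beside WT.

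Below WT, A_55_P2181222 was lower by 9.72-fold with HRF and 9.64-fold with PBS, and A_66_P128761 by 8.74-fold and 9.79-fold. A_55_P2036627 was lower by 4.95-fold and 4.96-fold, and A_55_P2001233 by 3.14-fold and 2.45-fold. The probes of this gene therefore disagree on the size of the difference, by more than the spot-to-spot SD, and not on its direction. On the arrays labelled FcRg KO the 8 differences of these probes from WT lay between -0.16 and 0.20. Ifi208 also shares a table synonym with its neighbour Ifi213, so the gene behind each probe is uncertain.

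Ifi211 and Ifi204 differed from WT mainly after HRF. Ifi211 stood at 0.05 and -0.64 on the HRF and PBS arrays labelled FceRIa KO, at 0.78 and 0.37 on those labelled FcRg KO, and at 2.68 and 0.39 in WT. The WT HRF array was the highest of the 6, and the array labelled FceRIa KO with PBS the lowest. With HRF, Ifi211 was 6.21-fold below WT on the array labelled FceRIa KO and 3.74-fold on that labelled FcRg KO.

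With PBS, Ifi211 was 2.04-fold below WT on the array labelled FceRIa KO, and 0.02 below it on the log2 scale on that labelled FcRg KO. The first of these passed 2-fold narrowly, with log2 -1.03, and stood at -0.92 with normexp and -0.80 with scaling on the median.

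Ifi204 stood at 1.23 and 0.89 on the HRF and PBS arrays labelled FceRIa KO, at 1.61 and 1.31 on those labelled FcRg KO, and at 2.50 and 1.0 in WT. The WT HRF array was again the highest, and the array labelled FceRIa KO with PBS the lowest. With HRF, the level was 2.42-fold below WT on the array labelled FceRIa KO and 1.86-fold on that labelled FcRg KO.

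**Figure D2:**
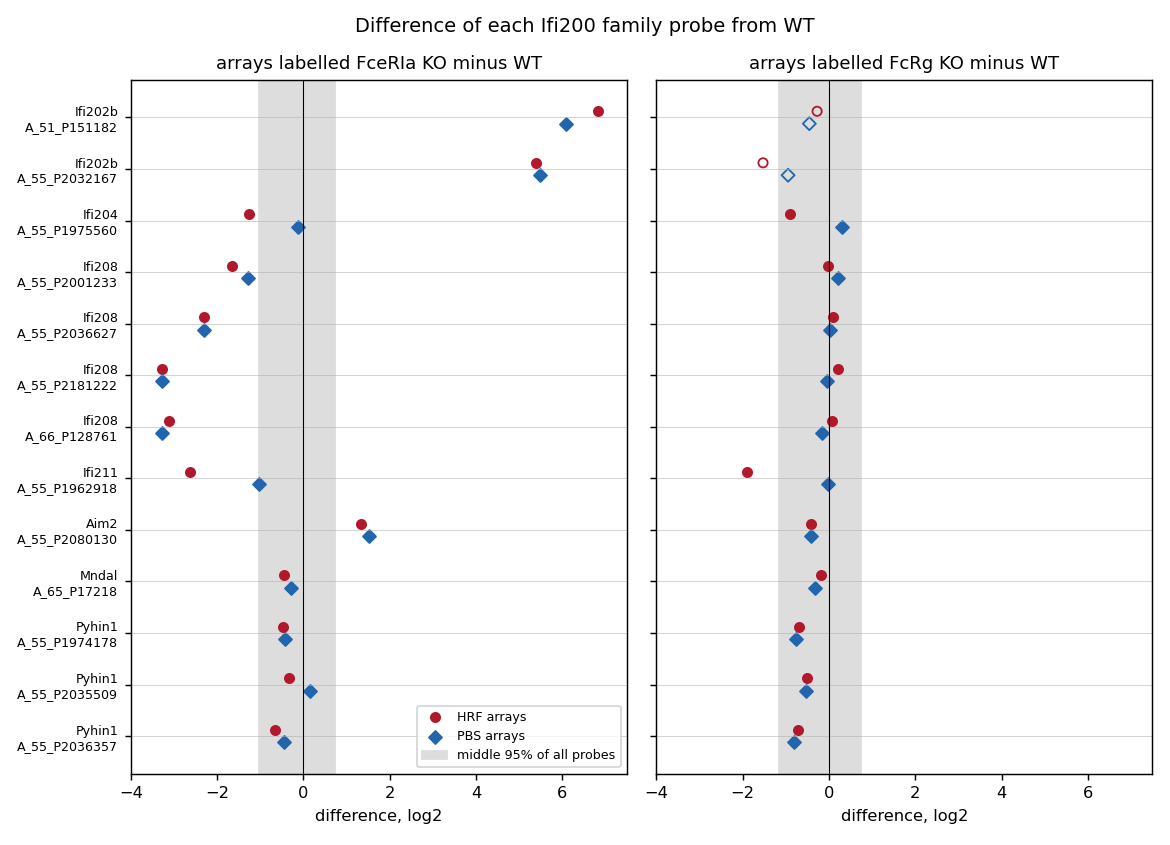
Difference of each Ifi200 family probe (rows) from WT in log2, on the arrays labelled FceRIa KO (left) and FcRg KO (right), with HRF (circles) and PBS (diamonds). Hollow points are bounds. The grey band joins the middle 95% ranges of the HRF and the PBS comparison, over all probes well above background on both arrays compared. The Ifi202b, Ifi208 and Aim2 points lie outside the band on the left panel, and the Ifi208 and Aim2 points lie inside it on the right.

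Mndal and Pyhin1 differed from WT by less than 2-fold under both labels, with all 3 Pyhin1 probes lower under the label FcRg KO. Mndal, a relative of human MNDA, stood at 2.22 and 2.08 on the HRF and PBS arrays labelled FceRIa KO, at 2.49 and 2.06 on those labelled FcRg KO, and at 2.66 and 2.37 in WT. Its differences from WT lay between -0.44 and -0.18. The 3 probes of Pyhin1 lay between -0.66 and 0.15 of WT on the arrays labelled FceRIa KO and between -0.81 and -0.51 on those labelled FcRg KO. The brightest of them, A_55_P2035509, stood at -0.86 and -1.25 on the HRF and PBS arrays labelled FceRIa KO, at -1.05 and -1.92 on those labelled FcRg KO, and at -0.53 and -1.40 in WT. No value of Mndal or Pyhin1 passed 2-fold.

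The genes around the family were placed by their order in the RefSeq table, from 1 Mb before Fcer1a to 1 Mb after the last member. Of 87 genes in this window, 27 besides the members were compared. On the arrays labelled FceRIa KO, 3 of the 27 were at least 2-fold higher on both arrays and 1 was lower, against 0.0657% and 0.615% of all 16740 genes compared by their brightest probe. On the arrays labelled FcRg KO, 0 were higher and 0 lower, against 0.149% and 0.625%.

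Fcer1a itself stood at -1.16 and -0.90 on the HRF and PBS arrays labelled FceRIa KO, at -4.38 and -4.70 on those labelled FcRg KO, and at -4.19 and -4.48 in WT, which is 8.19-fold and 11.96-fold over WT. The sodium pump subunit gene Atp1a4 was 4.23 and 4.83 above WT on the log2 scale and the potassium channel gene Kcnj10 1.29 and 1.42. The phosphatase gene Dusp23 was lower, at -1.88 and -2.31. Ifi214, an Ifi200 gene near Aim2 and no member, stood 0.60 and 0.75 above WT there and 0.44 and 0.35 below it on the arrays labelled FcRg KO. Among the called genes in order, Atp1a4 and Kcnj10 were high, Dusp23 low, Fcer1a and Aim2 high, Ifi208 and Ifi211 low, and Ifi202b highest. Genes without a call lay between them, among these Ifi214, Pyhin1, Ifi204 and Mndal.

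**Figure D3:**
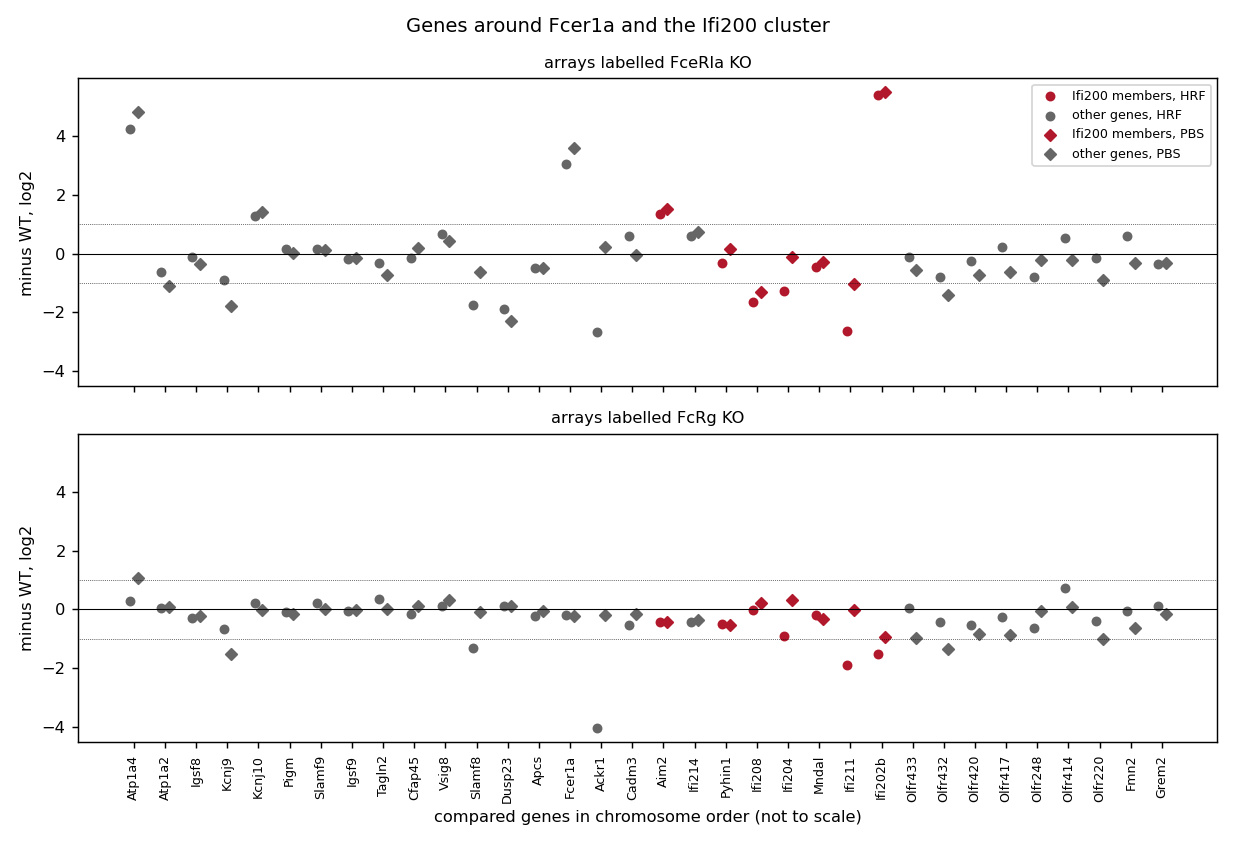
Difference from WT in log2 of the 34 compared genes around Fcer1a, in chromosome order and not to scale, on the arrays labelled FceRIa KO (top) and FcRg KO (bottom). Each gene has its HRF (circle) and PBS (diamond) value by its brightest probe, and dotted lines mark 2-fold. Genes past the same line with both challenges occur in the top panel only, 4 of the 7 members and 4 of the 27 other genes.

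Few members differed at least 2-fold between HRF and PBS. On the WT HRF array, 2 of the 13 member probes were at least 2-fold higher than on the WT PBS array, Ifi211 at 4.90-fold and Ifi204 at 2.83-fold, and 0 were lower. The shares over all probes were 1.51% and 2.92%. Under the label FceRIa KO, 0 of 13 were higher and 0 lower (1.73% and 0.982% of all probes), with Ifi211 at log2 0.69 and Ifi204 at 0.35. Under the label FcRg KO, 0 of the 11 probes compared were higher and 0 lower (1.02% and 0.945%), with Ifi211 at 0.41 and Ifi204 at 0.30.

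Ifi202b, whose level differed most between labels, had HRF to PBS differences of 0.56 and 0.51 under the label FceRIa KO and of -0.18 and 0.59 in WT. Aim2 and the 4 Ifi208 probes lay between -0.16 and 0.28 in all 3 genotypes. The difference from WT under the label FceRIa KO was therefore present with and without HRF, at unequal sizes for some probes. That of Ifi208 ranged from -3.28 with HRF and -3.27 with PBS for A_55_P2181222 to -1.65 and -1.29 for A_55_P2001233. That of Ifi202b was 6.83 with HRF and 6.09 with PBS by A_51_P151182, and 5.40 and 5.48 by A_55_P2032167.

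The average HRF effect over the 3 genotypes was tested with limma across all probes, with genotype label as an additive term. The average is not one of the differences that chose the members, although it comes from the same arrays. The residual of this fit, with 2 degrees of freedom, holds the unequal response of the genotypes and any spread between arrays, which cannot be told apart. Of 45313 probes, 0 were higher and 0 lower at an adjusted p of 0.05 (0% each way), with 949 higher and 2338 lower at an unadjusted p under 0.05. None of the 13 member probes passed, with adjusted p between 0.645 and 0.991, and 3 of them, all of Pyhin1, had an unadjusted p under 0.05.

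The 3 Pyhin1 probes were higher with HRF in 3 of 3 genotypes. Their average effects were log2 0.71 (SE 0.14), 0.39 (SE 0.10) and 0.36 (SE 0.08), each with a limma adjusted p of 0.645. Ifi211 averaged 1.13 (SE 0.45) and Ifi204 0.72 (SE 0.30), higher in 3 of 3 genotypes, with a limma adjusted p of 0.645 each. Without the WT pair these were 0.55 and 0.33. The difference in response between genotypes has no test here.

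**Figure D4:**
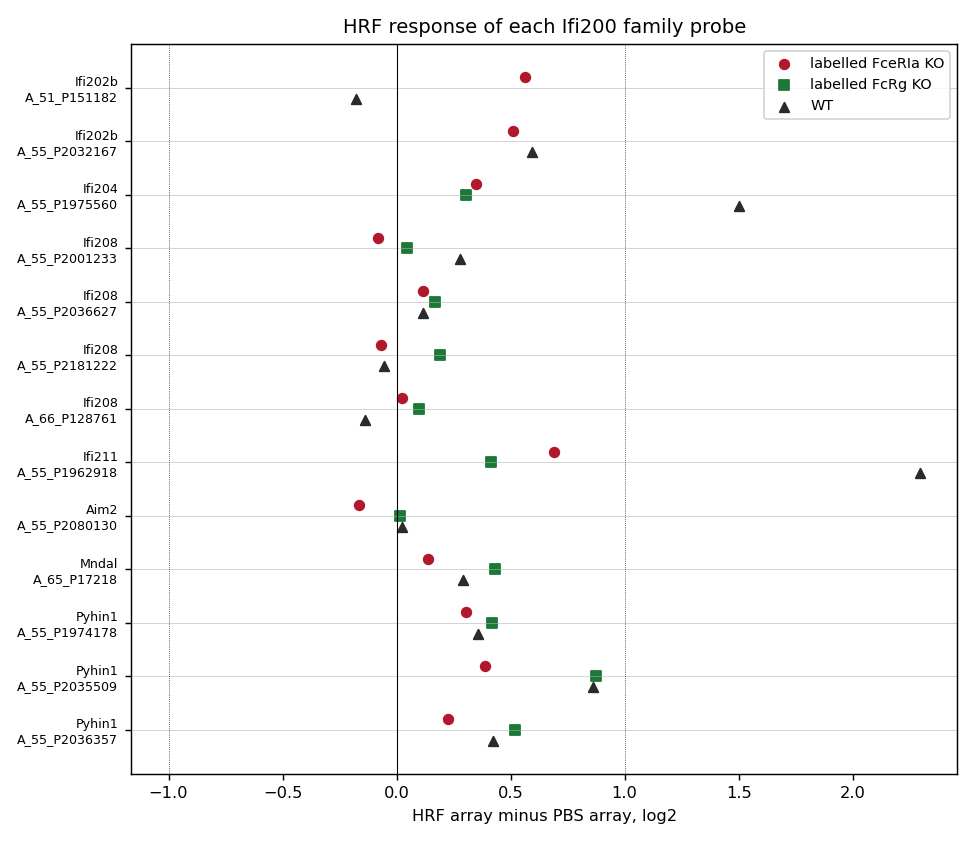
HRF array minus PBS array in log2 for each Ifi200 family probe (rows), under the labels FceRIa KO (circles) and FcRg KO (squares) and in WT (triangles). Dotted lines mark 2-fold, and pairs with neither array well above background are left out. The WT points of Ifi211 and Ifi204 are the only ones past a line.

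Partners of the family were set beside it. Of 10 inflammasome genes, 3 were at least 2-fold higher with HRF in WT (2.32% of all genes were) and 0 lower (1.52%): Mefv, which encodes pyrin, at log2 3.16, the cytokine gene Il1b at 2.75, and Casp4, an inflammatory caspase, at 1.73. Casp1, which Aim2 activates through Pycard, stood at 0.83. Under the label FceRIa KO these were 0.13, 1.10, 0.66 and 0.13, and under the label FcRg KO 0.41, -0.14, 0.17 and 0.16. Of 10 cytosolic DNA sensing genes compared, 2 were at least 2-fold higher in WT, the adaptor gene Sting1 at 1.61 and the DNA sensor gene Zbp1 at 1.48. The DNA sensor gene Cgas stood at 0.83 and the exonuclease gene Trex1 at 0.77.

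Against WT, neither list had a gene at least 2-fold off on both arrays of a label. The inflammasome list had a median of -0.20 on the arrays labelled FceRIa KO and -0.21 on those labelled FcRg KO, and the DNA sensing list -0.34 and -0.17, beside -0.02 and 0.01 over all genes compared. With HRF alone, Mefv, Casp4 and Sting1 were at least 2-fold below WT under both labels, as Ifi211 was, where 2.29% of all genes were lower under the label FceRIa KO and 3.02% under the label FcRg KO. Il1b was so under the label FcRg KO, at -2.16, and stood at -0.93 under the label FceRIa KO. Mefv stood at -2.28 under the label FceRIa KO and -2.45 under the label FcRg KO. These comparisons share the WT HRF array.

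Type I interferon-stimulated genes, which share the family's inducer, were set beside it as well. Of 25 compared, 0 were at least 2-fold higher and 0 lower than WT on both arrays labelled FceRIa KO, with a median of log2 0.00 and a range of -0.32 to 0.35. On the arrays labelled FcRg KO the counts were 0 and 0, with a median of 0.26, beside 0.01 over all genes, and a range of -0.25 to 1.12. Their average HRF effect had a median of 0.14, beside -0.02 over all genes, with Isg15 at 0.55, Ifi27l2a at 0.45, Oas2 at 0.41 and Ifit1 at 0.33, and 0 of 25 passed the limma threshold.

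**Figure D5:**
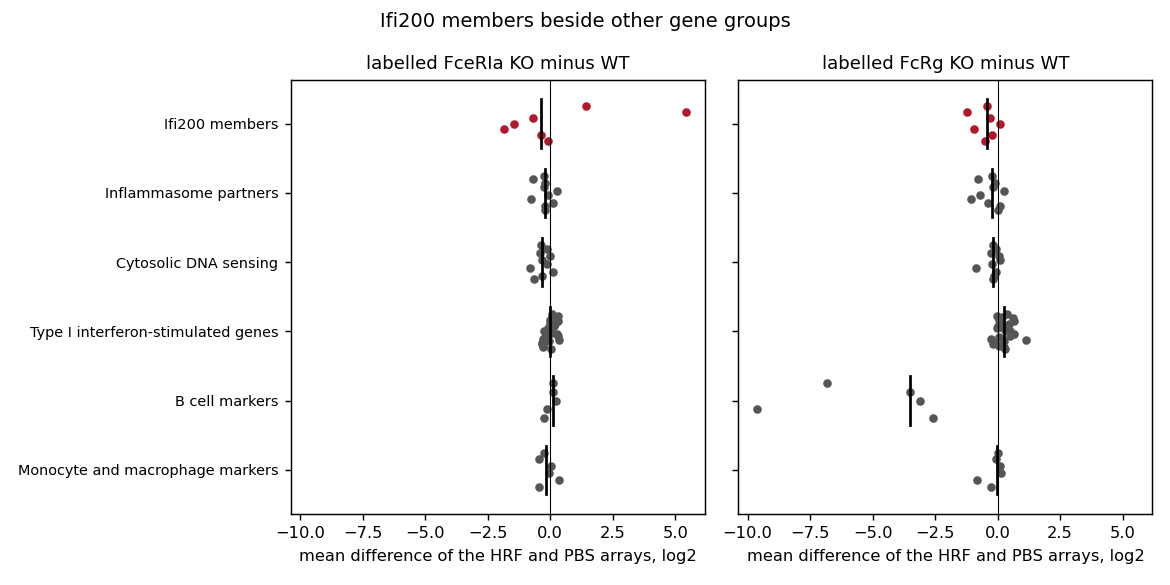
Mean difference from WT in log2 over the HRF and PBS arrays, for the 7 Ifi200 genes with a probe (red) and for other gene groups (grey), under the labels FceRIa KO (left) and FcRg KO (right). Each point is 1 gene by its brightest probe as measured, and bars are medians. The Ifi200 genes run from -1.83 to 5.44 on the left, where the interferon-stimulated genes run from -0.32 to 0.35, and B cell markers lie far to the left on the right panel.

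The 5 lung epithelium markers summed to 866 and 721 on the HRF and PBS arrays labelled FceRIa KO, 852 and 717 on those labelled FcRg KO, and 732 and 718 in WT, on a linear scale where the 75th percentile is 1. In whole lung, fewer cells of a type and less RNA per cell cannot be told apart. The summed level of the 5 B cell markers was 28.7 and 22.4 on the HRF and PBS arrays labelled FceRIa KO, 1.73 and 1.76 on those labelled FcRg KO, and 25.2 and 21.6 in WT. All 5 were at least 2-fold below WT on both arrays labelled FcRg KO, where Ms4a1 and Pax5 were not well above background. Aim2, Pyhin1, Mndal and Ifi211 were also lower than WT on both of these arrays, Ifi211 with PBS by only 0.02. Ifi202b was lower too, though not well above background there. Ifi204 and the Ifi208 probes were not lower on both arrays. The part of the B cell markers in the levels of the members was not tested. Of 4 NK cell markers, 2 (Eomes and Gzma) were at least 2-fold below WT on the HRF array labelled FceRIa KO. Of all genes compared, 2.29% were lower there by this rule, and Ifi211 and Ifi204 were lower too. So were the monocyte marker Ccr2, the neutrophil marker Cxcr2 and the dendritic cell marker Cd209a, each 1 of its list. On the HRF array labelled FcRg KO, 0 of the 4 NK cell markers were at least 2-fold below WT (3.02% of all genes). Marco, Cxcr2, Cd209a and the 5 B cell markers were. The NK cell markers summed to 10.9 and 15.7 on the HRF and PBS arrays labelled FceRIa KO, 22.5 and 16.4 on those labelled FcRg KO, and 24.1 and 18.6 in WT. The 6 monocyte and macrophage markers measured summed to 76.4 and 49.8 on the HRF and PBS arrays labelled FceRIa KO, 56.0 and 51.7 on those labelled FcRg KO, and 72.9 and 47.9 in WT. Such sums are set mostly by the brightest markers. With HRF, the 6 differences from WT ran from log2 -1.03 (Ccr2) to 0.55 (Marco) under the label FceRIa KO, with a median of -0.23. Under the label FcRg KO they ran from -1.43 (Marco) to 0.25, with a median of -0.33. The 4 neutrophil markers measured summed to 196 and 151, 138 and 112, and 148 and 72.2 in the same order of arrays. With HRF, their differences from WT ran from log2 -1.32 (Cxcr2) to 0.48 (S100a9) under the label FceRIa KO, with a median of -0.12. Under the label FcRg KO they ran from -1.65 (Cxcr2) to -0.05, with a median of -0.30. The 4 dendritic cell markers measured ran with HRF from log2 -1.71 (Cd209a) to -0.06 of WT under the label FceRIa KO, with a median of -0.47. Under the label FcRg KO these 4 ran from -1.05 (Cd209a) to 0.31, with a median of -0.16. With HRF in WT, 3 of these 4 neutrophil markers, 2 of the 6 monocyte and macrophage markers and 1 of 4 dendritic cell markers were at least 2-fold higher than with PBS. The part of the NK cell, monocyte, neutrophil and dendritic cell markers in the levels of Ifi211 and Ifi204 was not tested.

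Likeness over the 6 arrays is a description, since the arrays share 3 genotypes. It was taken among the 1523 or 1524 other genes well above background on all 6 arrays and with a range of at least 1 on the log2 scale. Among these, the genes most like Ifi202b were Aim2 (Pearson r 0.992), Fcer1a (0.986) and Ifi214 (0.954), all in the same window. Those most like Aim2 were Fcer1a (0.984), Kcnj10 (0.947) and Ifi214 (0.940), also in it. The gene most like Ifi208 was Dusp23 (0.982), which lies there too, followed by Lpcat2b (0.968) and Agrp (0.965) on other chromosomes. Ifi204 and Ifi211 were most like genes that were high on the WT HRF array, the lectin genes Cd209a (0.997) and Cd209d (0.994) and the inhibitory Fc receptor gene Fcgr2b (0.993) for Ifi204, and Slamf8 (0.996), which lies in the window, Tnfsf8 (0.995) and Ifi47 (0.994) for Ifi211. Mndal varied by 0.61 over all arrays and was most like Stra8 (0.979), Cfi (0.966) and AI662270 (0.955), and Pyhin1 most like Gm7609 (0.976), P2ry10 (0.967) and Tmem252 (0.960).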

How the data were processed

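Whole-lung RNA was measured on 6 arrays. Per the file headers, the authors' scanner output came from Agilent Feature Extraction 10.7.3.1, with a design annotated on mm9. Its deposited processed signal, an intensity, is background-subtracted and detrended within each array and not scaled between arrays. The deposited median spot and local background intensities are raw. The deposited value table holds log2 values whose centring is unknown, with column medians of 0.10 for WT PBS and 0 for the others. Its HRF minus PBS differences correlated with those computed here with r of 0.993, 0.992 and 0.996 across probes (FceRIa KO, FcRg KO, WT), so the direction is the same.

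The value was log2 of the processed signal over the 75th percentile of spots other than controls. Controls and outlier spots were dropped and repeat spots averaged per probe. Of 32335 probes with a RefSeq accession, 26056 were named through the RefSeq table of GRCm38.p6, used for names and gene order only. A probe was compared when well above background on at least 1 array, and a dim side was raised to the lowest signal well above background there, giving a bound ("at least N-fold"). Calls are 2-fold. Promoters are RefSeq sequences.

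limma 3.58.1 in R 4.3.3 tested the average HRF effect (genotype as a term, Benjamini-Hochberg), after a check on simulated data. Python 3.11.15, pandas 2.3.3 and numpy 2.4.6 did the rest. Members and lists were chosen with earlier results of these data known. Named were all member probes, the targeted genes, window genes with a 2-fold call in 1 direction on both arrays of a label, up to 4 genes per list with the largest average HRF effect, and the 3 most alike genes per member. Of the window, 1 gene is not reported here. Ifi213, Ifi205, Ifi206 and the markers Ms4a1, Pax5, Eomes, Gzma, Ccr2, Marco, Cxcr2, S100a9 and Cd209a were named after their values were seen. Alternatives were median scaling, normexp (offset 50) followed by quantile normalization, a stricter filter (every array compared well above background) or none, the value table as deposited, and leaving out each pair of arrays. The number of arrays limits the precision.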

Additional observations from a re-analysis of the deposited data

Results flagged for a closer look

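For 4 member probes both arrays of one label lay above WT and both of the other label below it, with at least one label past 2-fold on both arrays. The difference between labels was not tested. The mean differences from WT are in log2, with bounds where a probe was not well above background. Ifi202b probe A_51_P151182 stood at 6.46 on the arrays labelled FceRIa KO and -0.37 on those labelled FcRg KO, and A_55_P2032167 at 5.44 and -1.24. Aim2 stood at 1.44 and -0.42, and with normexp its differences under the label FcRg KO were -0.23 with HRF and -0.06 with PBS. Ifi208 probe A_55_P2036627 stood at -2.31 and 0.059. Its differences under the label FcRg KO, 0.08 with HRF and 0.03 with PBS, were about the size of the spot-to-spot SD at its level. The other Ifi208 probes did not meet this rule.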

How the results depend on the processing

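The 21 member differences of at least 2-fold were recomputed under 5 alternatives, which gave 104 values. All 104 kept their direction and 100 stayed at least 2-fold. The 4 others were Ifi202b A_55_P2032167 with HRF under the label FcRg KO (-0.41 with normexp), Ifi211 with PBS under the label FceRIa KO (-0.92 with normexp, -0.80 with scaling on the median) and Aim2 with HRF under the label FceRIa KO (0.93 with normexp); the cause was not tested. Scaling on the median shifts all differences by between -0.04 and 0.27. Under the label FcRg KO, 1 member probe, against 0, was lower on both arrays with the deposited value table and 1 with no filter, where no bound was applied to Ifi202b. Counts over all probes on both arrays depended on the processing. Under the label FceRIa KO, 43 were higher and 439 lower, against 20 and 32 with normexp, 1867 lower with the value table, 134 lower with the stricter filter, and 105 and 3382 with no filter. Under the label FcRg KO, 45 were higher and 490 lower, against 28 and 150 with normexp, 1149 lower with the value table, 205 lower with the stricter filter, and 80 and 2399 with no filter. The average HRF effect had 0 calls under all 8 alternatives run, with between 407 and 1808 higher and 1132 and 3170 lower at an unadjusted p under 0.05. Leaving out a pair of arrays left it at 0 calls, with averages for Ifi211 between 0.55 and 1.49 and for Ifi204 between 0.33 and 0.92. The HRF and PBS arrays of a genotype are set side by side by the genotype term of the fit. No further pairing was possible, because each group has 1 array and so no replicate numbers to block on. Ifi202b on the arrays labelled FcRg KO is limited by background.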
